A study of Mus musculus with 11 samples.

Results

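The genes described are 9 integrin subunits of leukocytes and platelets, namely Itgb2, Itgam, Itgal, Itgax, Itga4, Itgb1, Itgb3, Itgb7 and Itga2b, out of 22367 protein-coding genes of the GENCODE annotation of mm9. They were chosen by name. Each gene was taken as its gene body with 10 kb on each side, and PU.1 ChIP-Seq reads were counted there in 500 bp windows, 1093 windows in all out of 5309802 in the genome. Because Itgam and Itgax are neighbours, part of their windows belong to both genes.

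Integrins are cell surface receptors made of an alpha and a beta subunit that bind matrix proteins or counter-receptors on other cells, and inside signals switch them from a low to a high affinity state. Itgb2 (CD18) pairs with Itgal (CD11a), Itgam (CD11b) or Itgax (CD11c) on leukocytes, Itga4 pairs with Itgb1 or Itgb7 and binds VCAM-1 and fibronectin or MAdCAM-1, and Itga2b with Itgb3 forms the fibrinogen receptor of platelets and their precursors. PU.1 is an Ets family factor of myeloid and B cells that binds purine-rich sites with a GGAA core, and its level falls as erythroid cells mature. Genes of the CD18 family are known as PU.1 targets in myeloid cells.

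The study mapped PU.1 on chromatin in a leukemic and a normal immature erythroid cell. MEL cells are mouse erythroleukemia cells, here of 1 clone (clone 4, from line DS19) that carries a GATA-1 fusion to the estrogen receptor. ES-EP are erythroid progenitors derived from embryonic stem cells and kept proliferating in medium with dexamethasone, IGF-1, stem cell factor and erythropoietin. In both cell types the anti-PU.1 antibody T-21 was used on 2 chromatin preparations, A and B, each sequenced as 2 libraries, and there is 1 input library from MEL cells and 2 from ES-EP. Reads of both libraries of a preparation were added up, and the preparation is the replicate (n = 2 per cell type). The labels do not say whether preparations came from separate cultures, so p-values between the cell types measure the spread between preparations, which may be technical. P-values of ChIP against input come from 1 preparation each and cover counting error only. Read positions hold no expression values, so the labelled cell types could not be checked against marker genes, and what is measured is recovered DNA and not transcription.

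The ChIP libraries hold 2064597 to 4840424 reads and the inputs 2468968 to 5051235, and levels are given as RPM, reads per 1000000 placed reads of a preparation. A 500 bp window of a preparation has on average 1.07 to 1.34 reads, so single windows are known only within wide counting error. A window was called in a cell type when both preparations, each on its own, had more reads than expected by an exact Poisson test (one-sided, Benjamini-Hochberg adjusted p below 0.05 over all windows of the genome). For the expected reads the input was scaled by depth, and its value in the window, its mean over 5 kb or 10 kb around it or the genome mean was used, whichever was highest. Preparations MEL A and ES-EP B call fewer windows on their own (9729 and 6124) than MEL B (22036) and ES-EP A (16799).

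Of the 1093 integrin windows, 7 were called in MEL cells (0.64%), 5 were called in ES-EP (0.457%) and 2 were called in both. Over the genome the called share was 0.133% (MEL cells) and 0.0954% (ES-EP), and over the regions of all protein-coding genes 0.22% and 0.16%. In MEL cells the called windows lay at Itgb2 (1), Itgam (2), Itgb7 (2) and Itga2b (2). In ES-EP they lay at Itga4 (1), Itgb7 (3) and Itga2b (1). A called window was thus found at 4 of the 9 genes in MEL cells and at 3 genes in ES-EP, where 25.1% and 19.7% of all protein-coding gene regions have one. Itgal, Itgax, Itgb1 and Itgb3 had none in either cell type. The counts rest on the weaker preparations, since 22 integrin windows passed in MEL cells without MEL A and 19 in ES-EP without ES-EP B, where the share over the genome rose too, to 0.415% and 0.316%. Of the 10 windows called in either cell type, 5 have their highest point in an intron of the integrin gene itself and 4 lie outside its body.

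**Figure D1:**
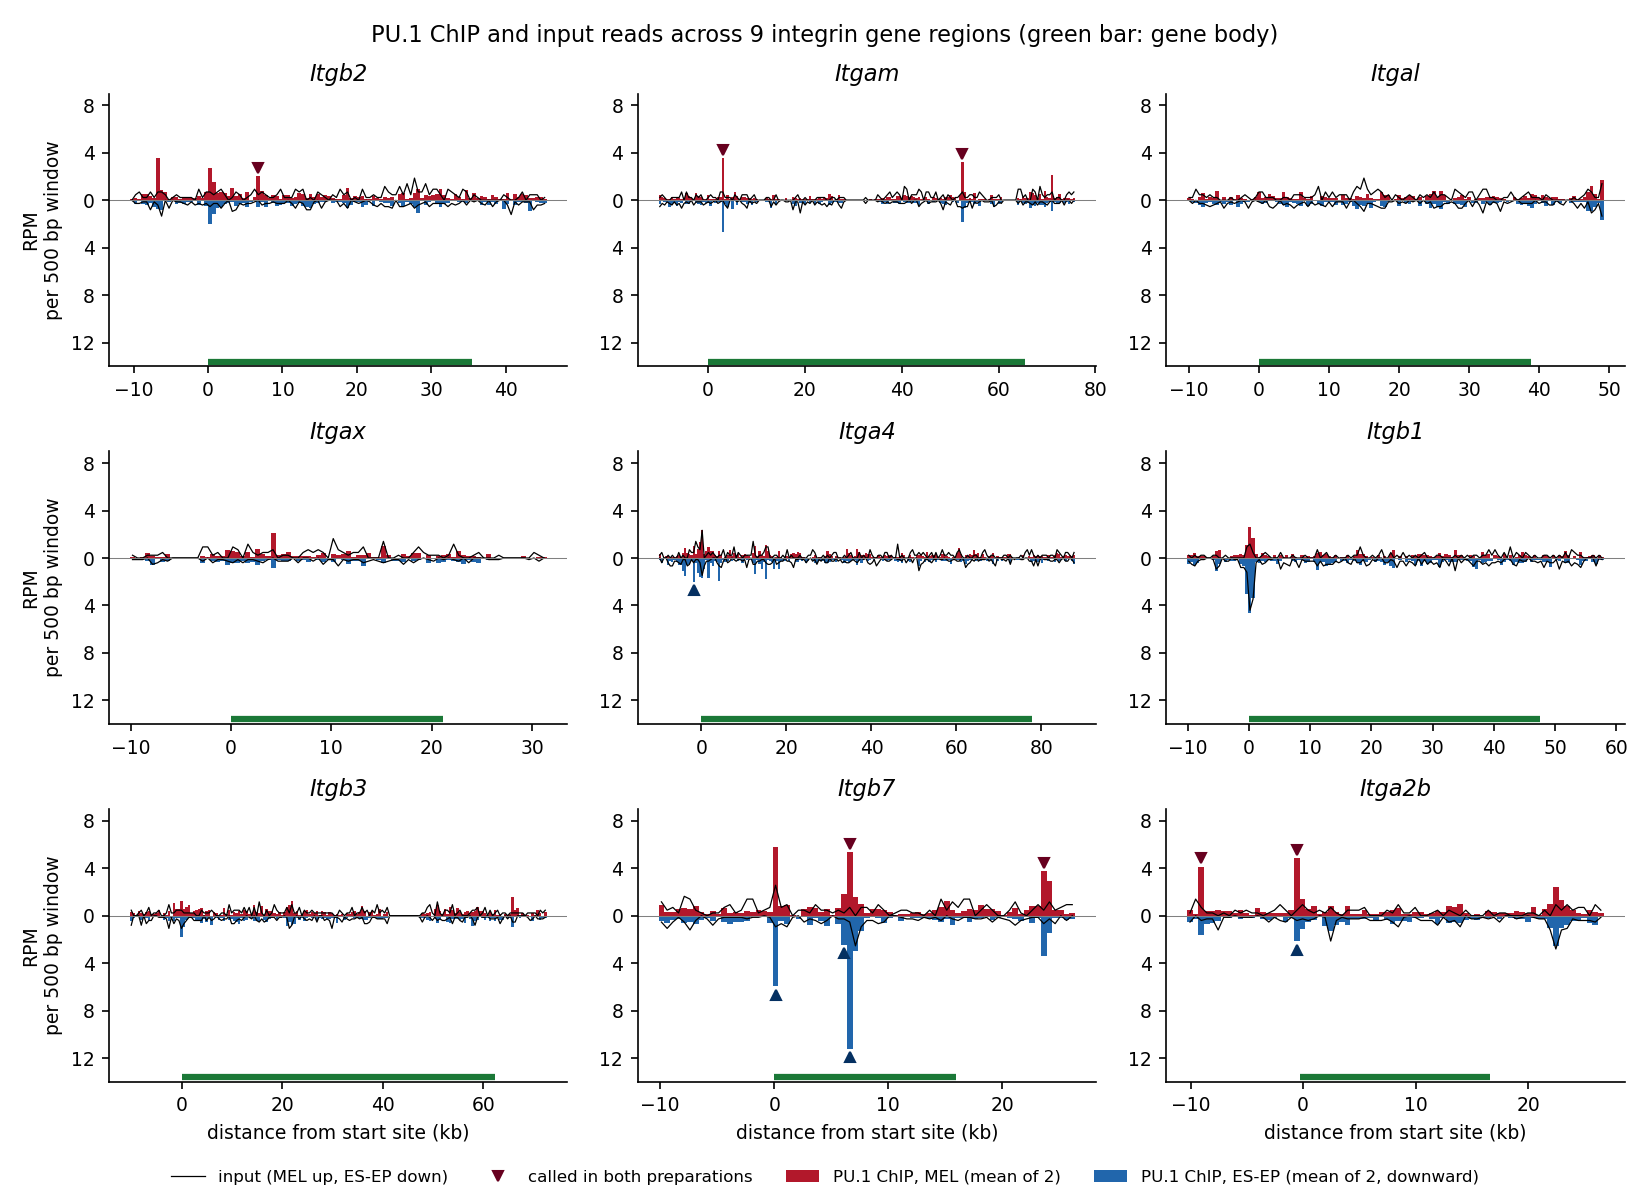
PU.1 ChIP RPM in each 500 bp window (mean of 2 preparations, MEL cells upward, ES-EP downward) against the distance from the start site in kb for the 9 integrin gene regions, with the input as a black line, triangles at windows called in both preparations and a green bar for the gene body. The highest bars are those of Itgb7, at 11.2 RPM for ES-EP 6.6 kb inside the gene and 5.79 RPM for MEL cells at the start site, while at the Itgb1 start site the ES-EP input (4.41 RPM) is near the ChIP (4.62 RPM).

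The DNA under the highest points of the called windows is shown first, as 150 bases of the plus strand of mm9 (NCBIM37) around the point with the most ChIP reads of all 8 libraries within 75 bp. Capitals mark matches on either strand of GAGGAA, of GAGGAAGT, which contains GAGGAA, and of the GATA type word AGATAAG. On the plus strand a match of the other strand reads TTCCTC, ACTTCCTC or CTTATCT. The 8 called sites with 150 bases outside untranslated exons are shown because the calls described below rest on them. Of the other called windows, one is part of the Itgb7 intron 2 site and the other is at the Itgb7 start site, with its highest point in an untranslated exon. The Itgax site, which was not called, was added after its values were seen because it holds 3 matches of the longer word.

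Itgb7 intron 2, chr15:102055898-102056047: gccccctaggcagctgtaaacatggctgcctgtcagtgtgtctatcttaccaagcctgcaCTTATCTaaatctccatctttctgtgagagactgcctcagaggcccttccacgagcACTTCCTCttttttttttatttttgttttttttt
Itgb7 flank, at Zfp740, chr15:102038490-102038639: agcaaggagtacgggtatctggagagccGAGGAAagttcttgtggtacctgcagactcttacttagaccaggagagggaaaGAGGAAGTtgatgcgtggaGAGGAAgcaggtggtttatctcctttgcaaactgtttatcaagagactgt
Itga2b upstream, chr11:102331522-102331671: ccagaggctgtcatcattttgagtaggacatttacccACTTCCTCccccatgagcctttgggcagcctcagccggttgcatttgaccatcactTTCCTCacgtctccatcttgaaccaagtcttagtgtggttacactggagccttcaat
Itga2b far upstream, in Gpatch8, chr11:102340098-102340247: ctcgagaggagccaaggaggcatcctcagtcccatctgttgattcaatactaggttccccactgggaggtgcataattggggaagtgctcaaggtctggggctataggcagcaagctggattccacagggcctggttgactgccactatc
Itgam intron 2, chr7:135209203-135209352: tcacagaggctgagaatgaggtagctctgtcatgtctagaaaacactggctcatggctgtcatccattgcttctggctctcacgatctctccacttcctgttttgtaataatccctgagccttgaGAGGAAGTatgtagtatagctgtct
Itgam intron 24, chr7:135258844-135258993: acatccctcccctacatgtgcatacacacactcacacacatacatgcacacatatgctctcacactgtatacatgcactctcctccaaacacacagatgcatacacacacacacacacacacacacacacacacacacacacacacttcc
Itgb2 intron 1, chr10:76999706-76999855: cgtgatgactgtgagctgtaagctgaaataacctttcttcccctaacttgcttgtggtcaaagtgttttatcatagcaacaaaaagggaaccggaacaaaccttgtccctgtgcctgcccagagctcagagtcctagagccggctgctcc
Itga4 upstream, chr2:79093569-79093718: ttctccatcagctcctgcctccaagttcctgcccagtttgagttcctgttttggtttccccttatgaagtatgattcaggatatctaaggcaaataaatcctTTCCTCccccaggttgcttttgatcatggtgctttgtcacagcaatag
Itgax intron 8, chr7:135277284-135277433: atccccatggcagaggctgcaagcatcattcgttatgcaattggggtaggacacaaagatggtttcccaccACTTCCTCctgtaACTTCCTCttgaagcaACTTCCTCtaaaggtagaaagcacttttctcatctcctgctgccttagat

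The Itgb7 site has a GAGGAAGT match and, on the same strand, an AGATAAG match within the printed bases. The Itga2b upstream site has both a GAGGAAGT and a separate GAGGAA match, Itgam intron 2 has one GAGGAAGT match, and the Itga4 site has GAGGAA without the last bases of the longer word. The Itgb2 intron site, the far upstream Itga2b site and Itgam intron 24, which is in part a run of CA repeats, hold none of the words within the printed bases. Each has the GGAA core. A GAGGAAGT match 73 bp from the highest point of Itgam intron 24 is cut off by the end of its printed bases. Of these 8 called sites, 5 hold GAGGAA, 4 hold GAGGAAGT, 1 holds AGATAAG and 8 hold GGAA. Of all 150-base stretches of the genome without undetermined bases, 14.0% hold GAGGAA, 0.883% GAGGAAGT and 2.19% AGATAAG. The share with GGAA was not counted, so the 8 sites with this short core cannot be set against the genome. Over whole windows, 8 of the 10 called ones hold GAGGAA and 6 hold GAGGAAGT, against 39.3% and 3.01% of all windows of the genome, and 2 hold AGATAAG against 7.31%. Windows called anywhere in the genome hold GAGGAA in 64.2% (MEL cells) and 67.8% (ES-EP) of cases and GAGGAAGT in 30.3% and 33.3%, so GAGGAA and GAGGAAGT are common at called windows in general. AGATAAG is held by 7.19% (MEL cells) and 10.8% (ES-EP) of them. A match is a description of the sequence and not a site of binding.

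Among the leukocyte subunits, Itgam had 2 windows called in MEL cells. In its intron 2 (chr7:135209001-135209500, 3.1 kb inside the gene) the reads were 15 (A) and 31 (B) in MEL cells versus 26 (A) and 8 (B) in ES-EP, and the inputs had 3 (MEL) and 0 reads (ES-EP). The window was called in MEL cells, with exact Poisson adjusted p of 0.013 and 3.16e-12. In ES-EP it passed in preparation A (adjusted p 5.92e-22) and missed in B (0.0887), where all 8 reads came from 1 of the libraries. Thus 3 of 4 preparations passed and the call in MEL cells alone does not show a difference between the cell types. The GAGGAAGT match lies 54 bp from the highest point.

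A further Itgam window in intron 24 (chr7:135258501-135259000), 52.6 kb inside the gene, had 14 and 28 reads in MEL cells versus 19 and 5 in ES-EP, with 3 and 5 input reads. It lies about 1 kb upstream of the start of a shorter annotated Itgam transcript (1031 bp). It was called in MEL cells (exact Poisson adjusted p 0.042 and 5.9e-10), ES-EP A passed too (6.23e-05) and ES-EP B did not (1.0). Of the 14 reads of MEL A, 13 came from 1 of its libraries. A run of CA repeats makes up part of the printed bases around its highest point. Neither Itgam window was called with the window grid moved by 250 bp, with an adjusted p below 0.01, or with at most 1 read per position and strand, so both rest on the threshold. At the Itgam start site itself reads were at the background, 3 and 3 in MEL cells versus 1 and 2 in ES-EP.

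Itgax, the CD11c gene that follows Itgam on the chromosome, had its highest window in intron 8 (chr7:135277001-135277500), 4.2 kb from its start site. Reads were 12 and 15 in MEL cells versus 4 and 8 in ES-EP, with 3 and 0 input reads. MEL B passed (exact Poisson adjusted p 0.0444) and MEL A did not (0.277). This window holds 3 GAGGAAGT matches within 150 bases, the nearest at the highest point itself. With the grid moved by 250 bp it was called in MEL cells.

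Itgb2, which encodes the beta subunit shared by the CD18 family, had 3 places with raised reads. The called one lies in intron 1, 6.8 kb inside the gene (chr10:76999501-77000000), with 12 and 14 reads in MEL cells versus 3 and 5 in ES-EP and 2 and 0 input reads. It passed in both MEL preparations (exact Poisson adjusted p 0.0148 and 0.00297) and in neither of ES-EP (adjusted p of 1.0 in both). The highest window starts 4 bp past the start site (chr10:76993001-76993500), with 11 and 25 reads in MEL cells versus 17 and 9 in ES-EP against 3 and 4 input reads. Here MEL B (7.77e-08) and ES-EP A (6.16e-05) passed, and MEL A (0.634) and ES-EP B (1.0) did not. Its highest point lies in the first exon, in the 5′ untranslated part, 41 bp from a GAGGAAGT match. With the grid moved by 250 bp, so that the start site is not on a window border, the Itgb2 start site was called in both cell types and the intron 1 window in neither. Upstream, at chr10:76986001-76986500 (6.7 kb before the start site), reads were 13 and 34 in MEL cells versus 7 and 3 in ES-EP with 3 input reads in each. On the moved grid this place was called in MEL cells. The window was named after its values were seen.

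Itgal, the CD11a gene, showed no window above background in any preparation. Within the gene body its highest window had 6 and 4 reads in MEL cells versus 7 and 3 in ES-EP, against 2 and 4 input reads. The highest window of the wider region (3 and 20, 13 and 9 reads, input 6 and 10) lies at the start of the neighbouring zinc finger gene Zfp768. The start site of Itgal had 4 and 5 reads in MEL cells versus 0 and 2 in ES-EP.

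Itgb7 carried the highest PU.1 signal of the 9 genes. In its intron 2 (chr15:102055501-102056000, 6.6 kb inside the gene) reads were 31 (A) and 37 (B) in MEL cells versus 103 (A) and 43 (B) in ES-EP, and the inputs had 3 (MEL) and 4 reads (ES-EP). All 8 ChIP libraries were high, with 18, 13, 14 and 23 reads (MEL) and 55, 48, 15 and 28 reads (ES-EP). Exact Poisson adjusted p-values were 4.36e-14 and 3.8e-17 for MEL and 4.51e-100 and 2.65e-23 for ES-EP. Summed over preparations and scaled by depth, ChIP was 7.65 times the input in MEL cells (95% interval 2.51 to 38.0) and 20.4 times in ES-EP (7.81 to 76.0), intervals that cover counting error only and are wide because of the few input reads. The highest point lies 27 bases from the end of this window, beside the word pair shown above. The highest window of Itgb7 had 8.3 RPM as a mean of the 4 preparations, and 5.88% of all protein-coding genes had a higher one.

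The next Itgb7 window towards the start site (chr15:102056001-102056500) had 7 and 17 reads in MEL cells versus 16 and 17 in ES-EP and was called in ES-EP, beside the same site. This call was lost with at most 1 read per position and strand and with a binomial test on the window alone. On its other side (chr15:102055001-102055500) the ES-EP input had 19 reads and the ES-EP ChIP 22 and 17, so that no excess was seen there in ES-EP. In MEL cells it had 5 and 16 reads against 0 input reads, and MEL B passed (exact Poisson adjusted p 0.000167) while MEL A did not (1.0). The Itgb7 start site (chr15:102062001-102062500) had 17 and 60 reads in MEL cells versus 50 and 28 in ES-EP. In MEL cells the input was itself high, at 11 reads. MEL A, with 14.65 reads expected, did not pass (exact Poisson adjusted p 1.0) while MEL B did (5.8e-12). In ES-EP the input had 7 reads and both preparations passed (7.03e-26 and 1.26e-06, exact Poisson). The highest point of that window lies 27 bp inside the first exon, 24 bp from a GAGGAAGT match.

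At the 3′ side, 23.6 kb from the Itgb7 start site, a window at the neighbouring gene Zfp740 (chr15:102038501-102039000) had 24 and 23 reads in MEL cells versus 29 and 15 in ES-EP, against 2 and 5 input reads. It was called in MEL cells (exact Poisson adjusted p 3.72e-09 and 3.62e-07) and passed in ES-EP A (2.8e-12) but not in B (0.0948). With the grid moved by 250 bp it was called in both cell types. Its highest point lies 128 bp from an annotated Zfp740 start site, in an intron of the longest transcript, so it counts towards Itgb7 only through the 10 kb flank. It holds 3 GAGGAA matches, 1 of them GAGGAAGT.

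Itga4, which pairs with Itgb7 or Itgb1, had a called window in ES-EP, 1.8 kb before its start site (chr2:79093501-79094000). Reads were 12 and 15 in ES-EP and 6 and 7 in MEL cells, with 3 and 2 input reads, and the exact Poisson adjusted p were 0.0126 and 0.00151 for ES-EP and 1.0 for both MEL preparations. The call was lost with an adjusted p below 0.01 and on the moved grid, where chr2:79094751-79095250, nearer to the start site, was called in ES-EP in its place. With both MEL preparations summed 0 of the 196 windows of the region passed, where 0.535% did over the genome. With both ES-EP preparations summed 6 windows passed, from 3.8 kb before to 15.2 kb past the start site, where 0.366% did over the genome. These rest mostly on ES-EP A, which called 7 windows of the region on its own where ES-EP B called 1, and over the whole region ChIP was 1.35 (A) and 1.05 (B) times the input. At the start site the input was itself high (10 reads in MEL cells, 11 in ES-EP) and the ChIP was not above it, at 6 and 26 reads in MEL cells versus 8 and 15 in ES-EP.

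Itgb1, the widely expressed beta1 subunit, had raised ChIP reads at its start site (chr8:131209501-131210000), 7 and 28 in MEL cells versus 35 and 26 in ES-EP. The ES-EP input had 33 reads there, so that ChIP was 1.03 times the input (95% interval 0.67 to 1.63). In MEL cells, with 5 input reads, the ratio was 2.36 (0.92 to 7.72), and MEL B passed (exact Poisson adjusted p 2.3e-05) while MEL A did not (1.0). The next window inside the gene likewise had 26 and 19 ES-EP ChIP reads against 26 input reads, while in MEL cells it had 7 and 15 against 2 and passed in MEL B (0.00072, exact Poisson) but not in MEL A (1.0). The window before the start site (chr8:131209001-131209500) had 20 and 20 reads in ES-EP against 9 input reads, a ratio of 2.49 (1.19 to 5.83), and 1 and 14 in MEL cells against 4. ES-EP A passed there (exact Poisson adjusted p 0.0394) and ES-EP B did not (0.28). No Itgb1 window was called.

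Of the platelet pair, Itga2b (CD41) had a called window in both cell types directly before the gene (chr11:102331501-102332000), whose highest point lies 400 bp upstream of the start site of its longest transcript. Reads were 31 and 30 in MEL cells versus 14 and 15 in ES-EP, against 2 and 3 input reads. Of the 14 reads of ES-EP A, 13 came from its second library, which is the deeper one. The second library of ES-EP B, also the deeper one, gave 13 of 15 reads, so the ES-EP call rests mostly on 1 library per preparation. For MEL A the second library gave 25 of 31 reads, while the reads of MEL B were split 16 to 14. The exact Poisson adjusted p-values were 7.81e-19 and 6.85e-16 for MEL and 2.46e-04 and 5.13e-04 for ES-EP. ChIP was 10.3 times the input in MEL cells (95% interval 2.73 to 86.9) and 5.41 times in ES-EP (1.68 to 27.8). The lowest MEL preparation had 4.29 RPM and the highest ES-EP preparation 2.23. This gap between 2 and 2 values did not pass in the test over preparations described below (limma adjusted p 0.79).

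A second Itga2b window lay 9.1 kb before the start site (chr11:102340001-102340500), in the last coding exon of the neighbouring gene Gpatch8. It had 21 and 32 reads in MEL cells versus 13 and 8 in ES-EP with 3 input reads in each. Both MEL preparations passed (exact Poisson adjusted p 2.93e-06 and 5.17e-13), and of ES-EP preparation A passed (0.00121) and B did not (1.0). Of the 21 reads of MEL A, 19 came from 1 of its libraries. Itgb3, the partner of Itga2b, had no called window. Its highest window, at the start site (chr11:104469001-104469500), had 8 and 8 reads in MEL cells versus 9 and 15 in ES-EP against 2 and 8 input reads, and no preparation passed. Past the 3′ end of Itgb3, 65.9 kb from its start site (chr11:104535001-104535500), there were 7 and 13 reads in MEL cells versus 5 and 8 in ES-EP against 1 and 4 input reads. There MEL B passed (exact Poisson adjusted p 1.12e-05) and MEL A did not (0.176), and the window passed with the MEL preparations summed. The difference between Itga2b and Itgb3 was not tested.

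**Figure D2:**
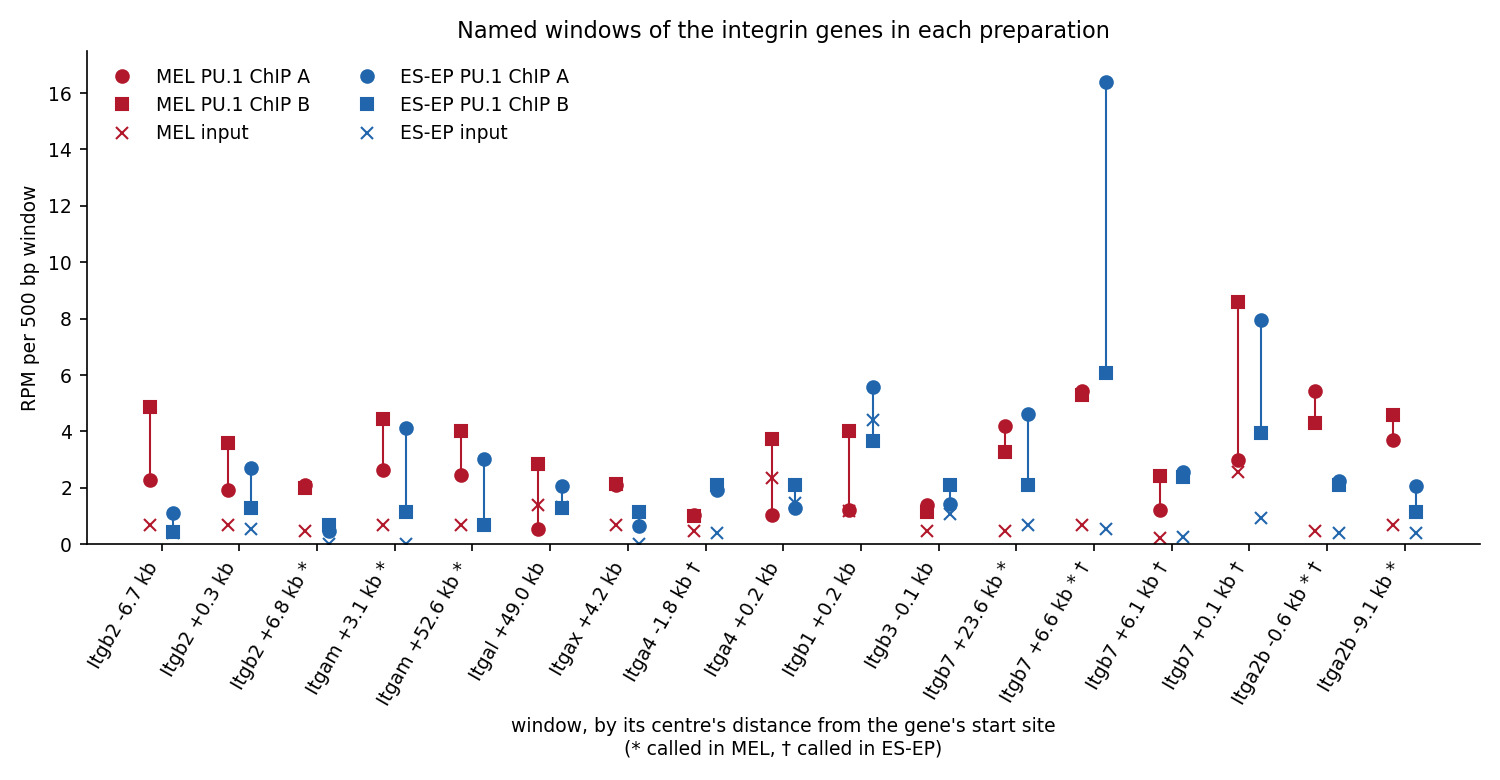
RPM (depth-scaled reads) in the named windows of the integrin genes, with a circle for preparation A, a square for preparation B and a cross for the input, MEL cells in red and ES-EP in blue. Itga2b -0.6 kb is 1 of 3 called windows with both MEL values above both ES-EP values, and 2 called windows have both below. Over all called windows of the genome this was not counted, so these counts are not shown to be particular to the integrin genes. Itgb7 +6.6 kb has the widest gap between preparations of 1 cell type, 16.4 and 6.06 RPM in ES-EP.

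The difference between MEL cells and ES-EP was then tested over the 4 preparations with limma (voom, two-sided, Benjamini-Hochberg over all windows with at least 20 reads). Of 65012 windows tested, 157 differed (0.241%), 104 of them higher in MEL cells. Of the 55 integrin windows tested, 0 passed, and 4 had an unadjusted p below 0.05, where 6.46% of all windows did. With a minimum of 1 read in place of 20, 7 integrin windows passed (0.141% of all windows then tested), and with median-ratio size factors 2 did (2.11% of all windows). Leaving out any 1 of the 4 preparations left 0 to 1 windows of the genome past the threshold.

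Among the named windows of the 9 genes, the largest difference was that of the upstream Itgb2 window, with a log2 difference of 2.30 in favour of MEL cells (SE 0.71, unadjusted p 0.00124, limma adjusted p 0.191). All 4 pairs of preparations had this direction. It passed with median-ratio size factors (limma adjusted p 0.0319) and with a minimum of 1 read (0.043). The Itga2b window in Gpatch8 had 1.38 (SE 0.62, limma adjusted p 0.671), and passed with median-ratio size factors (0.0465). The Itga2b upstream window had 1.13 (SE 0.63, limma adjusted p 0.79). The Itgb7 intron site had -0.89 (SE 0.68) and Itgam intron 2 had 0.63 (SE 0.62), with limma adjusted p of 0.79 in both. Without ES-EP preparation B the Itgam value turned to -0.27. With 2 preparations a side, values that miss the threshold do not show that PU.1 was alike in the cell types.

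Over the whole gene regions, ChIP reads were near the input for most of the genes. The ratio of depth-scaled ChIP to input was 2.16 and 1.61 in ES-EP A and B at Itgb7, where MEL cells had 1.01 and 1.37. At Itga2b it was 1.35 and 1.79 in MEL cells, while ES-EP had 1.203 and 1.219. Itgal lay at or below the input in all preparations, from 0.674 to 0.997. Itgb2, Itgam and Itgb3 lay between 0.865 and 1.10 in all preparations. The read density of the region was 1.41 RPM per kb for Itgb7 in MEL cells (SD 0.30, n = 2) and 1.41 in ES-EP (SD 0.29, n = 2), against 0.42 (SD 0.0072, n = 2) for Itgam in ES-EP.

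**Figure D3:**
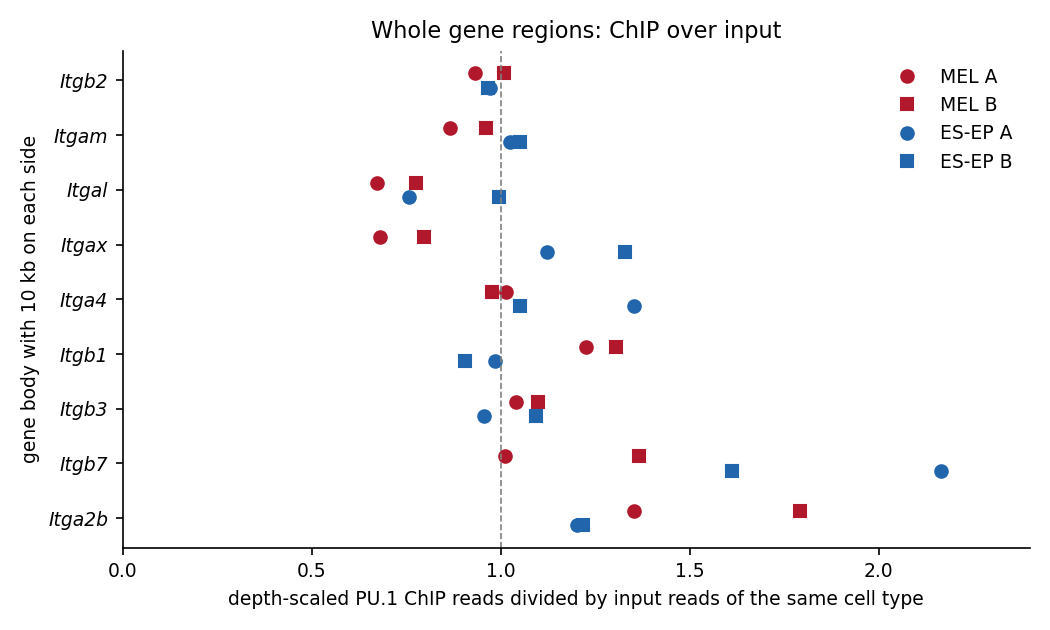
Depth-scaled PU.1 ChIP reads divided by the input reads of the same cell type over each gene body with 10 kb on each side, for MEL A and B (red) and ES-EP A and B (blue), with a dashed line at 1. Itgb7 reaches 2.16 in ES-EP A, and at Itgam, Itgax and Itgb1 the cell types lie on opposite sides of 1.

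Tested over all protein-coding gene regions with limma (voom, at least 20 reads), 1918 of 21805 differed between the cell types (8.8%), 1291 of them higher in MEL cells, and 1019 differed without ES-EP preparation A. Of the 9 integrin regions 1 passed, Itgb1, with 165 and 215 reads in MEL cells versus 341 and 354 in ES-EP (log2 difference -0.80, SE 0.18, limma adjusted p 0.0182). The inputs differed in the same direction and by more, with 101 reads for MEL and 412 for ES-EP, a depth-scaled ratio of 0.429, and on the whole of chromosome 8 the MEL input had 0.713 times the depth-scaled reads of the ES-EP input. With the chromosome ratio subtracted the Itgb1 difference was -0.31 (limma adjusted p 0.417). Without ES-EP preparation A, and with no ratio subtracted, it was -0.738. Divided by input, MEL cells lay above ES-EP at Itgb1 (1.23 and 1.30 against 0.986 and 0.907).

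Itgb2 was next, with 264 and 351 reads in MEL cells versus 214 and 240 in ES-EP (log2 difference 0.51, SE 0.18, limma adjusted p 0.109). It passed with median-ratio size factors (0.0445), as did 12.6% of all regions. The depth-scaled input of the Itgb2 region in MEL cells was 1.423 times that in ES-EP. ChIP over input there was 0.931 and 1.009 in MEL cells versus 0.973 and 0.967 in ES-EP. The other 7 regions had log2 differences between -0.25 (Itga4) and 0.19 (Itgam), with SEs between 0.17 and 0.21, and none passed the threshold. The median over the 9 regions was 0.10 and that over all regions tested was -0.07. The chromosome of Itgb7 had more input in MEL cells (ratio 1.29 on chromosome 15), and with it subtracted the Itgb7 region moved from 0.03 to -0.35 (limma adjusted p 0.435).

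**Figure D4:**
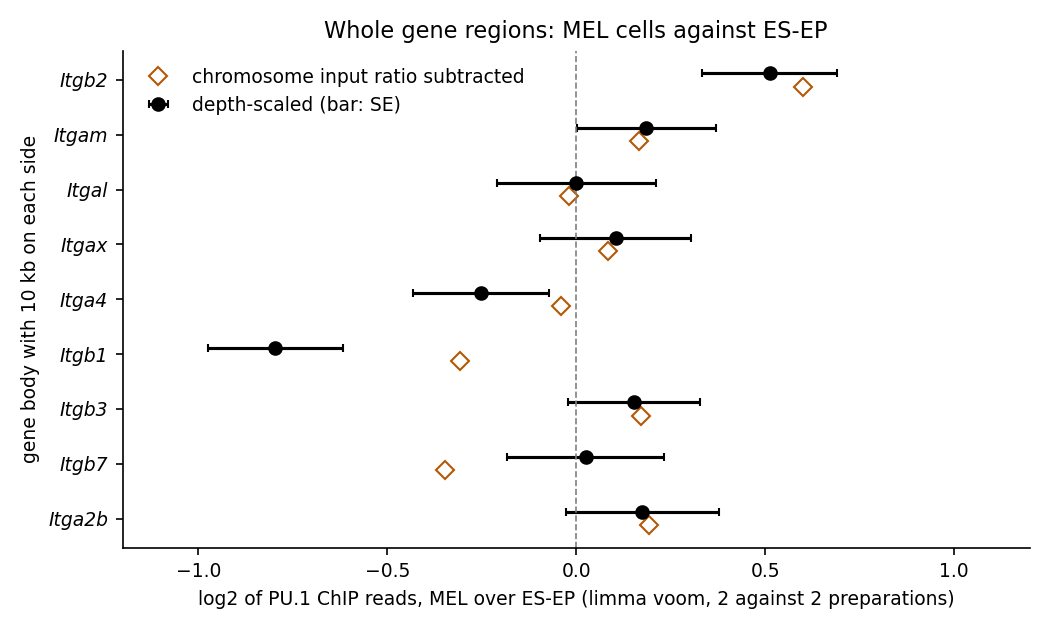
Log2 difference of PU.1 ChIP reads between MEL cells and ES-EP over each gene region (black, with the SE from limma over 2 against 2 preparations) and the same after subtracting the input ratio of the chromosome (open diamonds). Itgb1 lies at -0.80 before and at -0.31 after, and Itgb2 stays above 0.5 in both. The input of the Itgb2 region itself, which is not subtracted here, was 1.423 times as high in MEL cells as in ES-EP.

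The other genes of integrin function were counted by the same rule, and their counts stand against the 25.1% (MEL cells) and 19.7% (ES-EP) of all protein-coding gene regions with a called window. A long region has more windows in which one can be called, so the called share of windows is set beside the 0.22% and 0.16% over all gene regions. Of 17 other integrin subunits, 10 had a window called in MEL cells and 5 a window called in ES-EP, those 5 being among the 10, and 7 had none. Their regions hold 3888 windows, of which MEL cells had 12 called (0.309%) and ES-EP had 9 called (0.231%). The highest was Itgav, the alpha subunit of vitronectin receptors, whose start site had 160 and 352 reads in MEL cells versus 997 and 387 in ES-EP against 4 and 36 input reads. Itga5, the fibronectin receptor subunit, followed with 11 and 29 against 160 and 94 reads at a window 26.9 kb from its start site and 264 bp from that of Zfp385a. In Itga6, which encodes a laminin receptor subunit, an intragenic window 27.2 kb from the start site had 31 and 43 reads in MEL cells versus 50 and 33 in ES-EP. All 3 were called in both cell types. Over whole regions, of which 8.8% differed among all genes, 3 of the 17 did. Itga5 and Itgb8 were lower in MEL cells (log2 -1.51, SE 0.21 and -0.999, SE 0.195, limma adjusted p 0.00184 and 0.00959) and Itga10 was higher (1.21, SE 0.19, limma adjusted p 0.00383). The MEL input was 1.3 times that of ES-EP on the chromosome of Itga10 and 1.293 times on that of Itga5, and with the chromosome ratio subtracted all 3 regions still passed (limma adjusted p 0.000995 for Itga5, 0.0145 for Itgb8 and 0.0373 for Itga10). These 3 were named after their values were seen.

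Of 14 genes that act in integrin activation, 9 had a window called in MEL cells and 7 a window called in ES-EP, with 4 genes in both groups. Of their 2924 windows, 13 were called in each cell type (0.445%). Apbb1ip, which encodes the Rap1 effector RIAM, had 19 and 118 reads in MEL cells versus 118 and 105 in ES-EP at its start site, against 4 and 5 input reads. Tln1, the gene of talin, which binds the integrin beta tail, had 29 and 84 against 129 and 64 reads with 4 and 14 in the inputs. Rap1b, a small GTPase upstream of both, had 20 and 51 against 92 and 38 and was called in ES-EP, since MEL A did not pass (exact Poisson adjusted p 0.112). Of the 14 regions 1 differed in the test over preparations, where 8.8% of all regions did, that of Itgb1bp1 (log2 -0.93, SE 0.25, limma adjusted p 0.0369), and with the chromosome input ratio subtracted it did not pass (0.0521).

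Of 12 genes of integrin ligands, 3 had a window called in MEL cells and 3 a window called in ES-EP, with 2 genes in both groups, and 8 had none. This is near the share of all gene regions, and of their 1008 windows 3 were called in each cell type (0.298%). Icam1, the counter-receptor of the CD18 integrins, had 43 and 124 reads in MEL cells versus 12 and 11 in ES-EP 0.7 kb before its start site, against 5 and 1 input reads. The highest window of the region of Icam4, an erythroid adhesion molecule, lies 3.9 kb from its start site in coding exon 2 of the neighbouring gene Icam5, whose start site is nearest (1269 bp). It had 28 and 54 reads in MEL cells versus 17 and 20 in ES-EP, with 5 and 14 input reads. Spp1, the gene of osteopontin, had 17 and 16 against 30 and 5 at a window 8.0 kb from its start site. Of the 12 regions 2 differed, where 8.8% of all regions did. Those of Icam1 (log2 1.12, SE 0.21, limma adjusted p 0.00833) and Icam4 (0.89, SE 0.20, limma adjusted p 0.0204) were higher in MEL cells. They share windows because the genes are neighbours, so they are not 2 separate results. With the chromosome input ratio subtracted the limma adjusted p were 0.00739 (Icam1) and 0.0147 (Icam4).

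The pattern over the 4 preparations most like that of the Itgb7 intron site, by the Euclidean distance of log2(RPM + 0.5) among the highest windows of 22364 other genes, was that of Zfp69 with 30 and 40 MEL reads and 97 and 48 ES-EP reads (distance 0.203). Psen2 followed with 32, 41, 102 and 48 reads (0.205) and A330017A19Rik with 29, 36, 87 and 42 (0.256). The distance rests on 4 values and names genes of like read numbers only.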

How the data were processed

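PU.1 ChIP and input DNA of MEL cells and ES-EP had been sequenced as 11 libraries. The deposited files list 1 uniquely aligned read per line, with chromosome, start, strand and sequence, on mm9 per the labels, and hold no measured value. The study's methods name ELAND, whose version is not given in the sources used here. Read starts fit the NCBIM37 genome counted from 1 (99.95 to 100.0% of checked reads). Ends were shifted by 70 bp (MEL) or 65 bp (ES-EP), repeated positions (1.59 to 9.00% of reads) were kept, and the libraries of a preparation were summed. The ES-EP preparations are called A and B after the sample titles, while their files carry the letters C and D. Because n is 2 per cell type, precision is set by the preparations and by counting error.

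Windows of 500 bp were tested with the exact Poisson test (scipy 1.17.1) and cell types with limma 3.58.1 (voom, R 4.3.3), which was run on reads counted here from the listed positions. Both were also run on simulated counts with changes larger than most seen here, so this does not show how they behave on these data. Windows named are the highest, that of the start site of the longest protein-coding transcript, and every called one, of each gene. Genes came from GENCODE on NCBIM37. The 9 genes, the lists and the tests were chosen with earlier results of these data known. Alternatives were at most 1 read per position, a grid moved by 250 bp, a binomial test on the window alone, summed preparations, a threshold of 0.01, other scalings and filters, input subtraction, a replicate block and leaving out each preparation. Peaks called by the authors and expression arrays were not used here.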

Additional observations from a re-analysis of the deposited data

Results flagged for a closer look

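Among 32 sets of 4 ChIP libraries of a cell type, at the named windows, 2 had a library far from the other 3, where chance alone gives about 1 in 20 for independent libraries. The 4 libraries come from 2 preparations with 2 each, so this rate is nominal. At the Itgb7 flank window in Zfp740, library A1 of MEL cells had 5.84 RPM while the other MEL libraries had 3.29 each, a gap of 0.999 of the range. At the Itga4 start site, library B2 of ES-EP had 2.48 RPM and the others 1.27 to 1.33, a gap of 0.952 of the range. Both high libraries rest on 12 reads.

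At 3 of the 9 regions both preparations of one cell type lay above the input and both of the other below it, a difference that was not tested. How many of all gene regions do so was not counted, so 3 of 9 is not shown to be particular to these genes. At Itgax the mean ratio of ChIP to input in MEL cells minus that in ES-EP was -0.487, and at Itgam it was -0.125. At Itgb1 it was 0.319. The preparations of a cell type share their input, and the depth-scaled input of MEL cells over that of ES-EP was 1.78 at Itgax, 1.29 at Itgam and 0.429 at Itgb1.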

How the results depend on the processing

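The number of integrin windows called depended on how the preparations were used. In MEL cells it was 7, and 4 with an adjusted p below 0.01, 22 with both preparations summed, 0 with the binomial test on the window alone, and 7 to 22 when a preparation was left out, the higher without MEL A. Over the genome the same settings called 0.107%, 0.535%, 0.0246% and 0.183% to 0.415% of windows, in place of 0.133%. In ES-EP it was 5, and 18 with the preparations summed, 1 with the binomial test and 5 to 19 when a preparation was left out, the higher without ES-EP B, where the genome share was 0.366%, 0.0351% and 0.115% to 0.316% in place of 0.0954%. The binomial test uses the few input reads of the window alone. A call needs both preparations, so leaving one out cannot lose it, and in the other 5 settings 38 of 60 single calls were kept. The Itgb7 intron call in ES-EP was kept in all 5, the Itgb7 and Itga2b calls in MEL cells, the Itgb7 start site and the Itga2b upstream call in ES-EP in 4, the second Itgb7 intron call in ES-EP in 3, those of Itgb2 and Itga4 in 2 and each Itgam call in 1.

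Integrin windows that differed between the cell types numbered 0, and 2 with median-ratio size factors, 7 with a minimum of 1 read, 0 to 0 with a preparation left out and 0 with the replicate block. Regions numbered 1, and 2 with median-ratio size factors, 0 with the chromosome input ratio subtracted, 1 with the replicate block and 0 to 1 with a preparation left out. The letters A and B of the ES-EP preparations are those of the titles, while their files carry C and D. They are not stated to pair the cell types. The A minus B deviations of the cell types had an r of 0.0084 over 65012 windows, which at so few reads per window cannot exclude a pairing. Over the genome the replicate block gave 10 windows and 1923 regions in place of 157 and 1918.

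Over the genome the windows that differed numbered 157, 2049 with unweighted log2 values, 1369 with median-ratio factors, 6381 with a minimum of 1 read and 0 to 1 with a preparation left out. Differing regions numbered 2756 with median-ratio factors, 841 with the input ratio subtracted and 1019 without ES-EP A, in place of 1918. Signs of differences past no threshold turned for Itgal (0.0 with a minimum of 1 read, 0.001 with the replicate block and with unweighted values, 0.046 with median-ratio factors, -0.191 to 0.202 with a preparation left out), Itgax (-0.022 to 0.22 with a preparation left out), Itgb7 (-0.35 with the input ratio, -0.004 with unweighted values, -0.21 to 0.24 with a preparation left out), Itga2b (-0.038 to 0.365 with a preparation left out) and the Itgam intron 2 window (-0.27 to 1.55 with a preparation left out). The cause was not tested. With about 1 read expected per window, sites of a few reads are beyond what this depth can show.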
